A study of Rattus norvegicus with 8 samples.

Results

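Potassium channel genes were followed in the cerebral cortex of adult rats that had lived through a neonatal hypoxic-ischemic insult. The members were the genes whose probe on the array maps by RefSeq accession to a rat symbol beginning with Kcn, leaving aside Kcnj13, and whose signal was well above background on every array of at least 1 of the groups. Of 74 such genes with a probe, 60 were kept, among 21677 genes tested in all. The samples were 8 Wistar rats aged 8 weeks, with 1 array per animal. The 4 animals of the hypoxia-ischemia (HI) group, named Rice in the labels after the injury model, underwent section of the left carotid at 7 days of age and then 1 h in 8% oxygen at 33 °C. The 4 controls had no insult. The cortex taken was the one opposite to the injured hemisphere, and that of the corresponding side in controls, so the comparison concerns tissue outside the directly injured side.

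Potassium channels let potassium leave the cell and so set the resting potential, repolarise the membrane after each action potential and limit repetitive firing. Voltage-gated (Kv) channels are tetramers of pore subunits tuned by beta, KChIP, KCNE and modifier subunits, while calcium- and sodium-activated channels couple the current to firing itself. Inward rectifiers and 2-pore domain (K2P) channels carry resting currents, and in glia they take up the potassium that active neurons release.

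Levels are log2 of the processed intensity minus the array's 75th percentile, so a level of 0 equals that percentile, and a level of one probe cannot be set against that of another. The 75th percentile lay at 234.2 on the array of control 1 and between 436.1 and 510.2 on the other 7 arrays. Over all genes tested, control 1 correlated with the others at 0.905 to 0.93, where the other 7 correlated among themselves at 0.967 to 0.994. Over the members alone these ranges were 0.891 to 0.944 and 0.947 to 0.993. Each group filled a slide of its own with 4 arrays, and an effect of the slide cannot be told apart from one of the group. Of the cortical glutamatergic markers Slc17a7, Nrgn and Camk2a were measured, with log2 changes of 0.21, -0.27 and -0.14 and levels of 0.15 or more on every array, while Neurod6 and Tbr1 had no kept probe under that symbol.

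No member passed limma's test at an adjusted p under 0.05 over all genes with all 8 arrays, where 0.918% of all genes tested did. At an unadjusted p under 0.05 there were 4 of the 60 members, 6.67%, against 10.6% of all genes. These were Kcna4 and Kcns3, with lower levels after HI, and Kcnn2 and Kcnk1, with higher levels. The log2 changes (HI minus control) ran from -0.75 to 1.5, with 33 members below 0, 27 above, and 49 within 0.5 of it. Their median was -0.03, and the median over all genes was also -0.03. The median standard error of a member's change was 0.219. Without control 1 it was 0.137, and 2 of the 60 members passed, 3.33%, against 3.64% of all genes. Kcna4 was lower in that comparison and Kcna1 higher. At an unadjusted p under 0.05 there were then 7 members, 11.7%, against 20.6% of all genes. The plot of levels by animal for 57 of the 60 members shows how much of the variation lies in control 1.

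**Figure D1:**
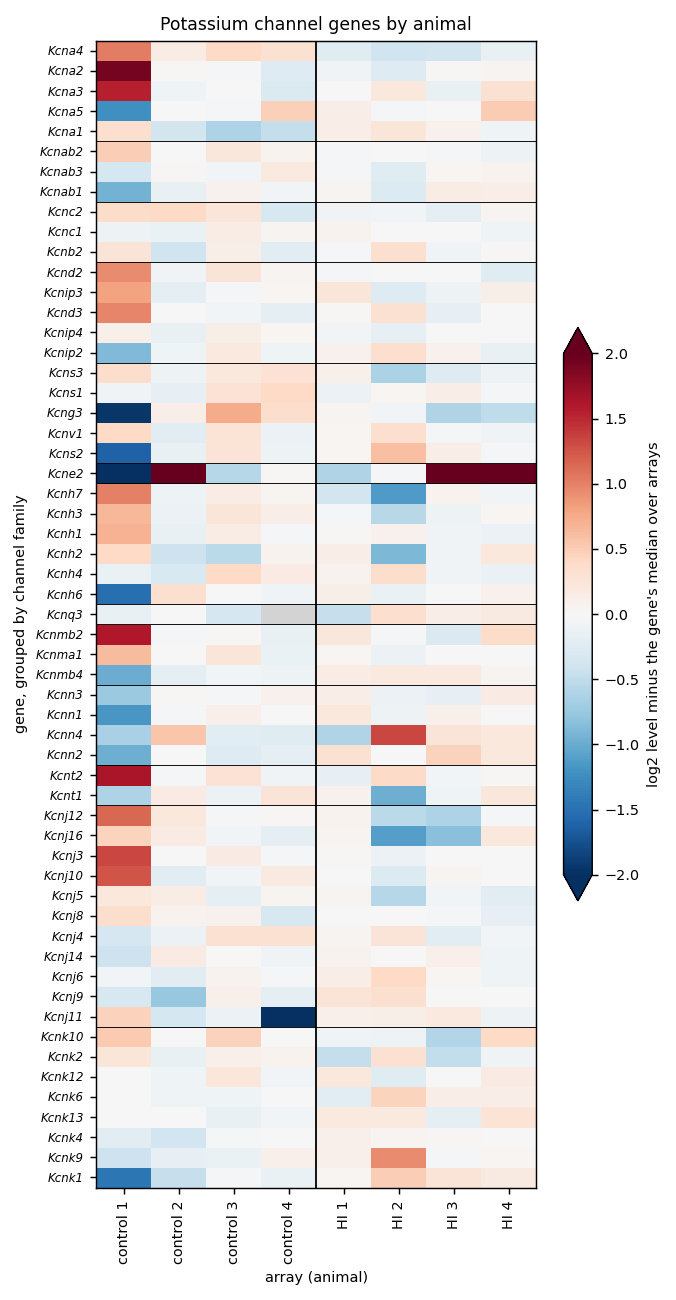
Heat map of 57 of the 60 potassium channel genes (rows, grouped by channel family) on the 8 arrays (columns); colour gives the log2 level minus the gene's median over the arrays, cut off at -2 and 2, and the grey cell is a missing value. Control 1 holds most of the strong colours, control 4 stands low for Kcnj11, and Kcne2 is high on control 2, HI 3 and HI 4.

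Kcna4 encodes Kv1.4, a Shaker subunit that gives a fast-inactivating A-type current in axons and terminals. Its level was 1.44, 0.57, 0.82 and 0.73 in controls 1 to 4 and 0.18, 0.02, 0.06 and 0.27 in HI 1 to 4. Every HI animal lay below every control, and control 1 was the highest of all 8. The log2 change was -0.75 (SE 0.193, limma adjusted p = 0.181), from 0.89 ± 0.38 to 0.14 ± 0.11 (SD, n = 4 each). An exact two-sided permutation test gave an unadjusted p = 0.0286, the smallest that 4 against 4 allows. Any gene whose groups do not overlap gets this value, so it only restates the lack of overlap. The groups did not overlap for 14.2% of all genes tested. Without control 1 the change was -0.57 (SE 0.0902) and Kcna4 fell with an adjusted p of 0.0224 by limma. In bulk tissue, fewer cells that express a channel and less of its RNA per cell cannot be told apart.

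The sequence upstream of Kcna4 is shown because this gene had the smallest p of the members. The 250 bases before its RefSeq start (GRCr8, chr3:114215086-114215335, plus strand) are given 5′ to 3′ with CpG dinucleotides in capitals.

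Kcna4: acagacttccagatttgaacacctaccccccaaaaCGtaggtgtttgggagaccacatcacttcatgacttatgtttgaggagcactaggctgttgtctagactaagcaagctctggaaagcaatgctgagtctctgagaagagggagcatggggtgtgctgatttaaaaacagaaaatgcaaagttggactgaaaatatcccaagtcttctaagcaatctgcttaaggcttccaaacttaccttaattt

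This window holds 1 CpG, where the median was 17 over the 38 members with an entry and 5 over all entries, and its GC content is 42.8%. On either strand it contains neither the cAMP response element TGACGTCA, the GC box GGGCGG nor the TATA box TATAAA. Windows of the same length before all RefSeq starts held these letters in 1.59%, 30.5% and 12.9% of cases. A match or its lack in this window describes the letters only.

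Kcna1 encodes Kv1.1, the low-threshold axonal subunit whose loss causes seizures in mice. It read 4.75, 4.05, 3.80 and 3.94 in controls 1 to 4 and 4.54, 4.65, 4.49 and 4.33 in HI 1 to 4. The HI animals lay above controls 2, 3 and 4 and below control 1, so the groups overlap through that array alone. With all arrays the log2 change was 0.37 (SE 0.211, limma adjusted p = 0.558). Without control 1 it was 0.58 (SE 0.0969) and Kcna1 rose with a limma adjusted p of 0.0277. A second, dimmer Kcna1 probe gave -0.07 (unadjusted p = 0.746), and 0.11 without control 1 (0.443), so the higher level rests on the brighter probe.

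Of the Kv1 genes Kcna4 alone had an unadjusted p under 0.05 with all arrays. Kcna2 (Kv1.2), the usual partner of Kv1.1 beside the nodes of myelinated axons, measured 0.18, -1.72, -1.76 and -2.0 in controls and -1.81, -2.0, -1.71 and -1.69 after HI. Kcna3 (Kv1.3), next to Kcna2 in the genome and also known from microglia and T cells, measured -0.53 in control 1 and between -2.37 and -1.78 on the other 7 arrays. Both were highest on control 1, as were 27 of the 59 members with no missing value. Control 1 was the highest or lowest array for 76.9% of all genes. The neighbours Kcna1 and Kcna5 were highest and lowest on it. Kcna3 is named after its values were seen, as is every gene outside the rule given in the processing summary. The changes of Kcna2 and Kcna3 were -0.48 and -0.20 with all arrays and 0.02 and 0.22 without control 1. Kcna5, the neighbour of Kcna1, had a change of 0.35, and of 0.01 without control 1. The Kv1 family as a whole had 3 members below 0 and 2 above, with a median of -0.20, and of 0.02 without control 1.

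Kv beta subunits bind the cytoplasmic face of Kv1 channels, steer them to axons and, for Kcnab1, bring fast inactivation. Kcnab2 measured 0.70, 0.22, 0.44 and 0.28 in controls and 0.18, 0.21, 0.19 and 0.12 after HI. The groups do not overlap, but the highest HI value and the lowest control value differ by little. The change was -0.23 (SE 0.126, limma adjusted p = 0.551), and -0.13 without control 1. Kcnab1 had a change of 0.28, and of 0.06 without control 1. Its second kept probe went the other way, at -0.31, and at -0.06 without control 1. Kcnab3 had a change of 0.01, and of -0.10 without control 1.

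**Figure D2:**
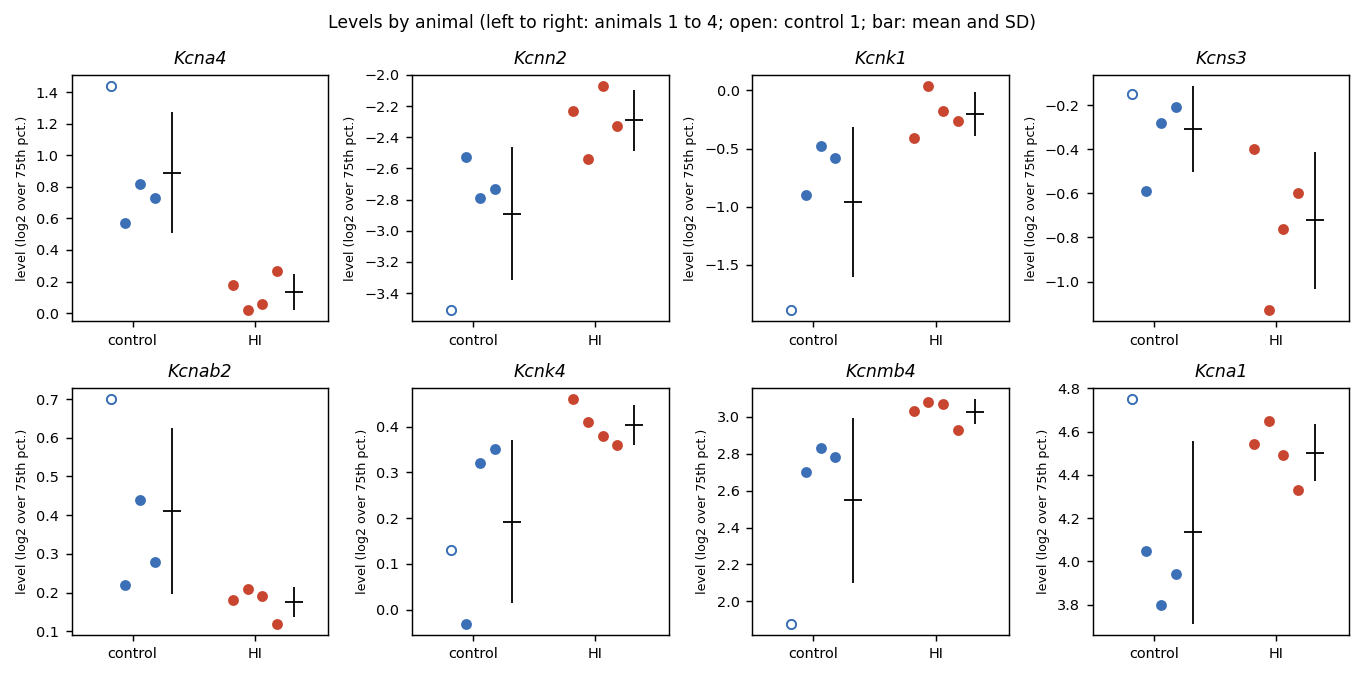
Levels (log2 over the array's 75th percentile) of 8 genes in each control (blue) and HI (red) animal, in the order of animals 1 to 4, with the mean and SD as a black bar; each panel has its own vertical scale. Kcna4 and Kcnab2 lie lower, and Kcnk1, Kcnk4 and Kcnmb4 higher, in all 4 HI animals than in any control, and the open circle of control 1 is far from the other controls in most panels.

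The groups did not overlap for 6 of the 60 members, 10%, against 14.2% of all genes. The HI animals were lower for 3, among them Kcna4 and Kcnab2 (5%, against 8.24% of all genes) and higher for Kcnk1, Kcnk4 and Kcnmb4 (5%, against 5.97%). These shares lie near or below the background, and of the 6 genes Kcna4 alone passed the test in any comparison without 1 array.

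Among the Kv2 and Kv3 genes 3 changes were below 0 and 2 above, with a median of 0.00, and none had an unadjusted p under 0.05. Kcnc1 (Kv3.1), which lets fast-spiking interneurons fire at high rates, had the smallest difference of all members. It measured 1.03, 1.00, 1.28 and 1.19 in controls and 1.20, 1.13, 1.13 and 1.04 after HI, a change of 0.00 (SE 0.106, limma adjusted p = 0.999).

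Kv4 channels carry the dendritic A-type current, and KChIPs are the calcium-binding proteins that bring them to the membrane. Of the 5 genes 4 had changes below 0, with a median of -0.14, and of 0.06 without control 1. Kcnd2 (Kv4.2) was 3.44, 2.43, 2.75 and 2.56 in controls and 2.46, 2.50, 2.50 and 2.25 after HI. The change of -0.37 (SE 0.218, limma adjusted p = 0.57) was -0.15 without control 1. Kcnip2, a KChIP of Kv4 channels, was lowest on control 1, with -0.78, 0.02, 0.30 and 0.01 in controls and 0.18, 0.43, 0.19 and -0.05 after HI. Its change of 0.30 (SE 0.234) was 0.08 without control 1. Kcnip4 ranged from 0.06 to 0.35 on all 8 arrays.

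Modifier subunits form no channel alone and alter Kv2 channels. Kcns3 (Kv9.3), known from parvalbumin interneurons in primate cortex, measured -0.15, -0.59, -0.28 and -0.21 in controls and -0.40, -1.13, -0.76 and -0.60 after HI. HI 1 overlapped the controls, and HI 2 was the lowest. The change was -0.42 (SE 0.179, limma adjusted p = 0.463), and -0.37 (adjusted p = 0.313) without control 1. Without HI 2 it was -0.28. Pvalb itself had a log2 change of -0.08 (SE 0.273). Of the 7 measured interneuron markers 5 had changes below 0 and 2 above, with a median of -0.08. At a limma unadjusted p under 0.05 there were 2, both lower after HI, where 10.6% of all genes had such a p. The summed linear level of the 7 ran from 51.9 to 75.4 in controls and from 45.7 to 61.4 after HI. The part of cell numbers in the Kcns3 values was not tested. Kcng3 was between -3.41 and -2.81 in controls 2 to 4, -5.49 in control 1 and -4.15 to -3.50 after HI. Its change was -0.10 with all arrays and -0.69 without control 1, the lowest among the members in that comparison (limma unadjusted p = 0.0138, adjusted p = 0.132). Kcng3 was kept through the HI arrays alone.

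The EAG, ERG and ELK genes, relatives of the cardiac HERG channel that open slowly and steady the resting potential, had 4 changes below 0 and 2 above (median -0.11, and -0.05 without control 1). Kcnh7 (ERG3) measured -1.29, -2.40, -2.15 and -2.24 in controls and -2.66, -3.43, -2.23 and -2.35 after HI. Its change of -0.65 (SE 0.33, limma adjusted p = 0.53) was -0.41 without control 1, and HI 2 stood 1.02 below the mean of the other HI animals. Without HI 2 the change was -0.39. Kcnh2 (ERG1) was lowest in HI 2 as well, at -3.13 against -2.29 to -2.02 in the rest of its group, and had a change of -0.03, and of 0.14 without control 1.

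KCNQ channels carry the M-current, a slow brake on firing that muscarinic receptors close. Kcnq3 (Kv7.3) ran from 1.64 to 1.98 in the 3 controls with a value and from 1.52 to 2.31 after HI. The value of control 4 was an outlier spot set to missing, so the change of 0.21 (SE 0.212) rests on 7 arrays.

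**Figure D3:**
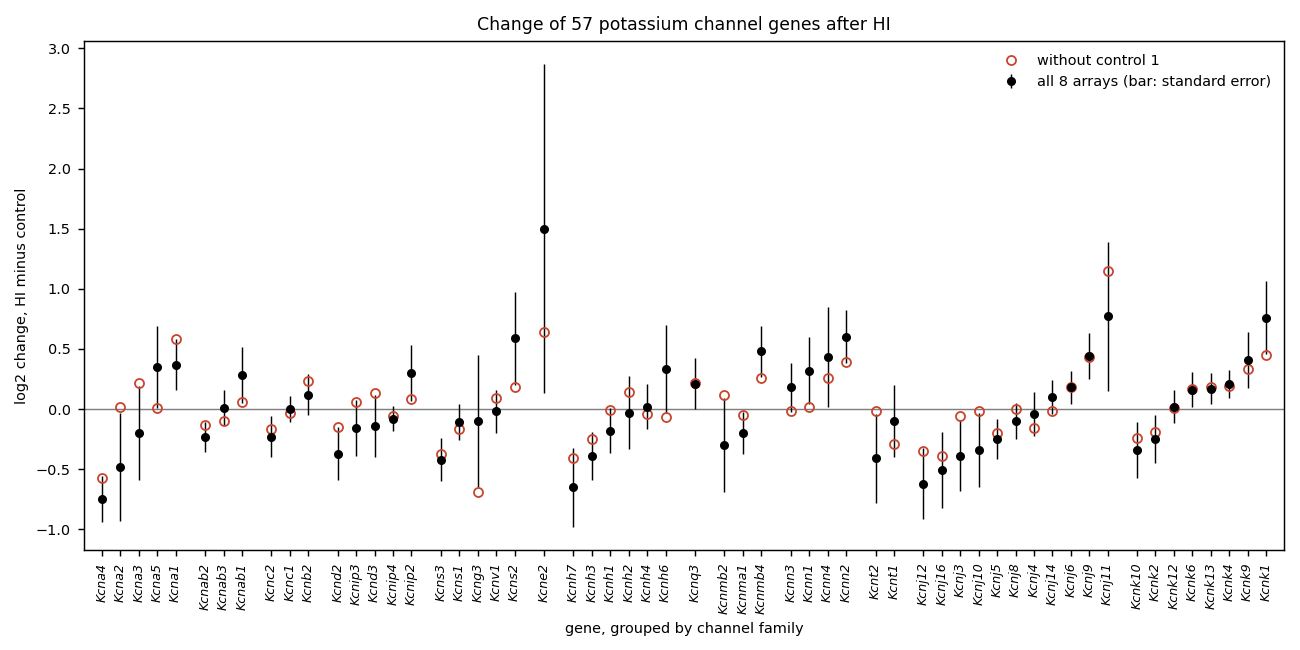
Log2 change (HI minus control) of 57 of the 60 genes, grouped by family, as black points with the standard error for all 8 arrays and as open red circles without control 1. Most points lie within 0.5 of 0, the widest error bar is that of Kcne2, and Kcna4 stays below and Kcna1 above 0 in both.

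BK channels open on depolarisation and calcium together and shape the fast afterhyperpolarisation. The pore gene Kcnma1 measured -0.13, -0.78, -0.52 and -0.90 in controls and -0.72, -0.88, -0.77 and -0.76 after HI. Its change was -0.20 (SE 0.172), and -0.05 without control 1. A second, dimmer Kcnma1 probe gave -0.38, and 0.02 without control 1. Kcnmb4, the beta subunit typical of neurons, slows BK channels and makes them resistant to iberiotoxin. It measured 1.88, 2.70, 2.83 and 2.78 in controls and 3.03, 3.08, 3.07 and 2.93 after HI, with every HI animal above every control. Its change was 0.48 (SE 0.214, limma adjusted p = 0.484). Without control 1 it was 0.26 (SE 0.0647, adjusted p = 0.0834), since that array lay far below the rest. Kcnmb2 was at -1.07 in control 1 and between -2.97 and -2.31 on the other 7 arrays.

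SK channels, opened by calcium through calmodulin, carry the medium afterhyperpolarisation. All 4 genes had changes above 0, with a median of 0.37, and control 1 was the lowest array for each. Without control 1 the median was 0.14, with Kcnn1 at 0.02, Kcnn3 at -0.02 and Kcnn4 at 0.26. Kcnn4 was kept through the HI arrays alone. Kcnn2 (SK2), the subtype of cortical and hippocampal spines, measured -3.51, -2.53, -2.79 and -2.73 in controls and -2.23, -2.54, -2.07 and -2.33 after HI. HI 2 overlapped control 2. The change was 0.60 (SE 0.22, limma adjusted p = 0.376), and 0.39 without control 1 (adjusted p = 0.138). After normexp background correction with 75th percentile scaling it was 0.15 (unadjusted p = 0.164), and with quantile scaling 0.31. Kcnn1 was -2.81 in control 1 and between -1.75 and -1.44 on the other 7 arrays. Kcnn4, the intermediate-conductance channel of blood and immune cells, was highest in HI 2, at -2.53 against -4.47 to -3.60 in the other HI animals. The 3 measured red blood cell markers each had a limma unadjusted p under 0.05, with a summed linear level of 3.43 to 4.49 in controls and 4.78 to 11.7 after HI. Each of the 3 was highest in HI 3, where Kcnn4 was at -3.60. The part of red blood cells in the Kcnn4 values was not tested.

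Sodium-activated channels (Kcnt1, Slack, and Kcnt2, Slick) carry an outward current after sodium entry. Kcnt1 measured -2.43, -1.65, -1.92 and -1.55 in controls and -1.73, -2.78, -1.89 and -1.58 after HI. Its change was -0.10 (SE 0.302), and -0.29 without control 1. HI 2 was 1.05 below the mean of its group mates, and without HI 2 the change was 0.16. Kcnt2 was 1.38 in control 1 and between -0.42 and 0.13 elsewhere. On a second, dimmer Kcnt2 probe control 1 was not high, at -3.37 against -3.35 to -2.89 in the other controls. That probe gave a change of -0.30, and of -0.35 without control 1 (limma unadjusted p = 0.0477).

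Of the 11 inward rectifiers 7 had changes below 0 and 4 above (median -0.10, and -0.02 without control 1), and none had an unadjusted p under 0.05. The G protein-gated channels carry the slow inhibition of GABA-B and other receptors. Their subunit Kcnj3 (GIRK1) was 5.02, 3.69, 3.86 and 3.65 in controls and 3.71, 3.58, 3.69 and 3.69 after HI. Its change was -0.39 (SE 0.295), and -0.06 without control 1. Further, dimmer Kcnj3 probes gave -0.03 and -0.15, and 0.32 and -0.21 without control 1. Control 1 was the highest control on the first of them, at 0.19, but the lowest on the second, at -3.18. Kcnj9 (GIRK3) measured 0.66, 0.21, 1.08 and 0.78 in controls and 1.23, 1.29, 0.99 and 0.96 after HI. Its change of 0.44 (SE 0.193, unadjusted p = 0.0533) was 0.43 without control 1, and HI 3 and HI 4 overlapped control 3. Kcnj6 (GIRK2), the most widespread pore partner in brain, had a change of 0.18.

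Kcnj10 (Kir4.1) is the glial channel that clears extracellular potassium, alone or paired with Kcnj16 (Kir5.1). It was -2.39, -3.88, -3.71 and -3.48 in controls and -3.65, -3.93, -3.60 and -3.66 after HI. The change of -0.34 (SE 0.309, limma adjusted p = 0.6) was -0.02 without control 1. Kcnj16 measured -1.45, -1.72, -1.94 and -2.09 in controls and -1.84, -2.99, -2.73 and -1.68 after HI, low in HI 2 and HI 3 and within the control range in the others. All 8 astrocyte markers were measured, 4 above and 4 below 0 with a median of -0.05, and their summed linear level was 105 to 124 in controls and 114 to 124 after HI. Among them S100b was at -0.96 (limma adjusted p = 0.0956), and fell by 1.09 without control 1 (adjusted p = 0.0219). Gjb6 was at 0.88 (adjusted p = 0.157). The part of astrocytes in the Kcnj10 and Kcnj16 values was not tested. Kcnj10 and Kcnj9 are neighbours in the genome, with changes of -0.34 and 0.44, and of -0.02 and 0.43 without control 1.

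ATP-sensitive channels join an inward rectifier to a sulfonylurea receptor and open when ATP falls. Kcnj11 (Kir6.2), the neuronal pore subunit, was 1.91, 1.11 and 1.34 in controls 1 to 3, -1.28 in control 4 and 1.56, 1.57, 1.65 and 1.35 after HI. With control 4 the change was 0.77 (SE 0.617, limma adjusted p = 0.593), and without it 0.08. Without control 1 it was 1.15. Control 4 was thus far below the other 7 animals. Abcc8, the partner receptor encoded next to Kcnj11, was at 1.18 in control 4 and had a change of 0.39, and of 0.14 without control 1. Kcnj8 (Kir6.1), a pore subunit of pericytes and smooth muscle, measured 1.06, 0.79, 0.80 and 0.40 in controls and 0.72, 0.71, 0.67 and 0.55 after HI. Its change was -0.10 (SE 0.149), and 0.00 without control 1. Its neighbour and partner Abcc9 had a change of 0.16, and of 0.25 without control 1.

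K2P channels carry leak currents. Of the 8 genes 6 had changes above 0, with a median of 0.16, and of 0.18 without control 1. Kcnk1 (TWIK1), abundant in astrocytes, measured -1.89, -0.90, -0.48 and -0.58 in controls and -0.41, 0.04, -0.18 and -0.26 after HI. Every HI animal was above every control, though HI 1 and control 3 were close. The change was 0.76 (SE 0.303, limma adjusted p = 0.425), and 0.45 (adjusted p = 0.135) without control 1. Kcnk4 (TRAAK), a mechanosensitive leak channel of nodes of Ranvier, measured 0.13, -0.03, 0.32 and 0.35 in controls and 0.46, 0.41, 0.38 and 0.36 after HI. Every HI animal was above every control, by a small margin between HI 4 and control 4. Its change was 0.21 (SE 0.116), and 0.19 without control 1. Kcnk9 (TASK3) was -1.13 in HI 2 and between -2.11 and -1.97 in the other HI animals, against -2.48 to -1.97 in controls.

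The widest spread of any member was that of Kcne2, a KCNE subunit that the choroid plexus epithelium expresses strongly. It measured -6.33, -0.62, -4.29 and -3.70 in controls 1 to 4 and -4.33, -3.75, -0.36 and -0.50 in HI 1 to 4. The high arrays were control 2, HI 3 and HI 4, which belong to both groups. The change of 1.5 had an SE of 1.37 (limma adjusted p = 0.601). It was 0.64 without control 1, 2.54 without control 2, and 0.47 after normexp with 75th percentile scaling. Ttr, the transthyretin of choroid plexus, was 7.62, 8.00 and 7.83 on those 3 arrays, 3.86 in HI 2 and at most 1.41 on the others. Of 10 choroid plexus markers 5 were measured, and each was highest on the same 3 arrays. Their summed linear level ran from 0.652 to 223 in controls and from 1.40 to 283 after HI. How much of the Kcne2 signal came from choroid plexus was not tested.

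**Figure D4:**
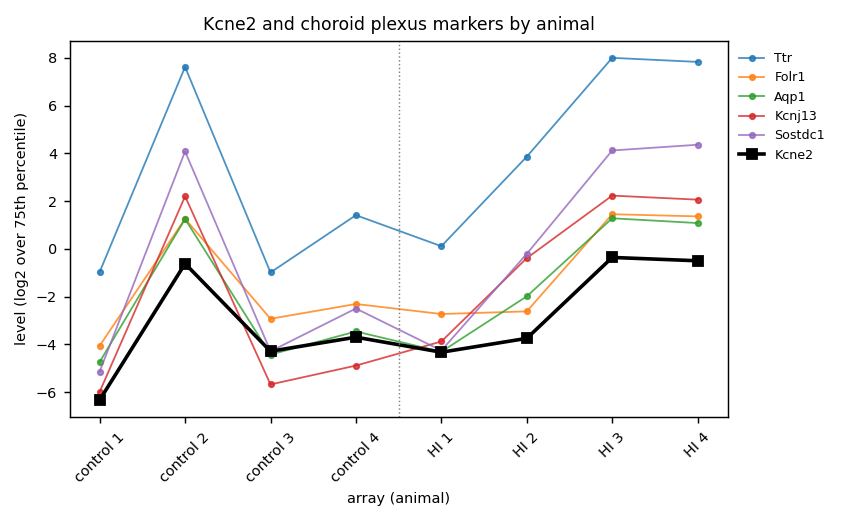
Level (log2 over the array's 75th percentile) of Kcne2 (black) and of the 5 measured choroid plexus markers on each of the 8 arrays, with controls left and HI right of the dotted line. All 6 lines peak on control 2, HI 3 and HI 4.

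Control 1 was the highest or lowest array for 44 of the 59 members with no missing value, highest for 27 and lowest for 17. That is 74.6% of members, against 76.9% of all genes. It lay over 1 log2 unit from the mean of the other controls for 17 members (28.8%, against 29.9% of all genes). Among these Kcna2, Kcna3, Kcnd3, Kcnj3, Kcnj10, Kcnj12, Kcnmb2 and Kcnt2 were higher, as was Kcnj11, for which control 4 was low. Kcna5, Kcne2, Kcng3, Kcnh6, Kcnk1, Kcnn1 and Kcns2 were lower. HI 2 was the extreme array for 26 members, 44.1%, against 30.2% of all genes. It was the lowest for 14, among them Kcna4, Kcnh2, Kcnh3, Kcnh7, Kcnj5, Kcnj16, Kcns3 and Kcnt1, and the highest for 12, among them Kcnk1, Kcnk9, Kcnj9 and Kcnn4. HI 2 also carried the most meningeal RNA, with Col1a2 at 5.28 against 0.69 to 1.90 on the other 7 arrays. For 8 measured meningeal markers the summed linear level was 14.6 to 169 after HI and 9.76 to 41.7 in controls. Its part in the channel values of HI 2 was not tested.

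The filter on dim probes kept 53 members through both groups and 7 through the HI arrays alone, namely Kcna5, Kcne2, Kcng3, Kcnh4, Kcnh6, Kcnn4 and Kcns2. For 6 of these 7, 3 control arrays also had signal well above background, and for Kcnh4, 2 did. The 14 genes with a probe that was not kept included Kcnj2, Kcnk3, Kcnq1, Kcnip1 and Kcnh5, none of them well above background on any array. Kcnh8 was so on 2 HI arrays, Kcnmb1 on 1 HI array and Kcne4 on 1 control array. No member's reported probe was saturated on any array, counted where at least 0.5 of its spots were flagged so. A further 20 Kcn genes of the RefSeq annotation, among them Kcna6, Kcnc4, Kcnd1 and Kcnq5, had no probe matched by accession and were not analysed here.

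Partners and regulators of potassium channels outside the Kcn symbols were counted as a list. Of 43 listed genes 31 were measured, and none passed over all genes. The list had a median change of -0.04, with 14 above 0 and 17 below. At an unadjusted p under 0.05 there were 3 of the 31, where 10.6% of all genes tested had such a p. Of these 3, 1 had a higher level after HI and 2, Cntn2 and Adam23, a lower one. Cntn2 (TAG-1), the adhesion molecule that gathers Kv1 channels beside nodes, measured 1.70, 1.20, 1.16 and 1.69 in controls and 0.89, 0.68, 0.86 and 0.74 after HI, with no overlap (change -0.64, SE 0.16, limma adjusted p = 0.165). Oligodendrocytes also express Cntn2, and their 7 markers had a median change of -0.17, and of -0.37 without control 1. With all arrays 4 of the 7 had changes below 0 and 3 above. Opalin was at -0.86 (limma unadjusted p = 0.00441) and Mog at -0.62 (unadjusted p = 0.0214), while Mbp was at 0.31, Mobp at 0.21 and Cnp at 0.15. Without control 1 Mbp was at -0.40, Mobp at 0.01 and Cnp at -0.32. The summed linear level of the 7 was 257 to 433 in controls and 230 to 360 after HI, and the part of these cells in the Cntn2 values was not tested. Adam23, of the LGI1 complex at Kv1 channels, was at -0.68 (SE 0.258, adjusted p = 0.398), and at -0.42 without control 1.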

How the data were processed

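Total RNA from 8 cortices was labelled with Cy3 and hybridised to 1-colour Agilent arrays. The authors' scanner files come from Agilent Feature Extraction 9.5.3.1, as the headers state. Each gives an intensity per spot (processed, median and local background signals) and flags, whose unit here is other than a measured signal, per the file headers. The deposited series table holds log2 values of unstated origin. Its columns correlated at 0.9997 or more with the scanner values scaled as below and centred on each probe's median, so its scale, centring and direction were settled, and it was used as an alternative.

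Of 45018 spots 1639 controls were left out. Log2 processed signals minus each array's 75th percentile were averaged over the spots of a probe, with outlier spots set to missing (87 probe values in all). A probe was well above background where at least 0.5 of its spots were. Probes passing this on all arrays of a group were kept (24875 of 41012), and the brightest stood for a gene. Accessions were matched, without version, to RefSeq transcripts of GRCr8 for 10735 probes (26.2%). The groups were compared with limma 3.58.1 (R 4.3.3; lmFit, eBayes) and p-values adjusted by Benjamini-Hochberg over every gene tested, after tests on simulated data.

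The members and lists were chosen with earlier results of these data known. Given with every array's value by rule were members with an unadjusted p under 0.05 or groups that do not overlap, listed genes, and the member with the smallest p in a family without any. Others, some also with every value, were named after their values were seen. Results of a few genes are not reported here by name, though the counts, medians and ranges include them. The alternatives are given in the closing section. The number of arrays limits precision.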

Additional observations from a re-analysis of the deposited data

Results flagged for a closer look

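In each group of 4 animals the gap of the highest or lowest value to its neighbour was set against the group's range, for the 20 genes that the rule in the processing summary names. Of 40 groups checked 5 exceeded Dixon's critical value, where chance gives about 1 in 20. Control 1 was set apart for Kcnmb4 (1.88, others 2.70 to 2.83), Kcna2 (0.18, others -2.0 to -1.72) and Kcnj3 (5.02, others 3.65 to 3.86). HI 2 was set apart for Kcnj3 (3.58, others 3.69 to 3.71). HI 4 was set apart for Kcnd2 (2.25, others 2.46 to 2.50).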

How the results depend on the processing

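With all 8 arrays 199 genes passed an adjusted p under 0.05. With array weights 1327 did, without control 1 and HI 2 together 705, and with any 1 array left out 116 (without HI 3) to 793 (without control 1). No potassium channel gene passed with all arrays, and 2, Kcna4 and Kcna1, passed with array weights, without control 1, and without control 1 and HI 2 together. With 1 array left out this count ran from 0 to 2. The members with an unadjusted p under 0.05 were 4 with all arrays, 7 after normexp with quantile scaling and with array weights, 8 after normexp with 75th percentile scaling and without control 1 and HI 2 together, and 1 (without HI 3) to 7 (without control 1) with 1 array left out. Kcna4 kept its direction under every alternative run, at -0.86 to -0.53, with limma adjusted p from 0.0113 to 0.483. Some signs turned. Kcna2, at -0.48 with all arrays, was at 0.04 with array weights and 0.09 without control 1 and HI 2, and Kcnj10, at -0.34, was at 0.03 and 0.05. Without those arrays Kcnip2 was at 0. Kcnc1 was at 0.02 after normexp with 75th percentile scaling, 0.01 with quantile scaling, 0.07 with median scaling and 0.02 in the authors' table. The second Kcna1 probe gave -0.07, against 0.37 for the brighter one. Normexp with 75th percentile scaling took Kcnn2 from 0.60 to 0.15, Kcne2 from 1.5 to 0.47, Kcnh7 from -0.65 to -0.41 and Kcnab2 from -0.23 to -0.11. With 1 array left out Kcna2 ran from -0.7 to 0.02, Kcnc1 from -0.04 to 0.05, Kcnt1 from -0.29 to 0.16 and Kcnj8 from -0.22 to 0. The cause was not tested. With no filter the median over all genes was -0.17 and that of the members -0.09.

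With the replicate block 69 genes and 0 members passed, and 6 members had an unadjusted p under 0.05. Same-numbered animals had deviations correlated at -0.161 to 0.0266, and 0 of 4 controls correlated best with their own number. No pairing by number was thus seen, but whether same-numbered animals share more than a number was not tested. The slide as a block was not run, since each group lies on 1 slide.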
